A study of Mus musculus with 2 samples.

Results

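Pax7, Myf5, Myod1, Myog and Myf6 were followed cell by cell in quiescent and activated muscle stem cells of the mouse. The genes were chosen by name, as the transcription factor that marks satellite cells and the 4 myogenic regulatory factors, and make up 5 of the 32285 features counted. Satellite cells were sorted from the tibialis anterior (TA) muscle of mice aged 8 weeks and profiled by droplet-based 3' single-cell RNA sequencing. Quiescent satellite cells (QSC) came from uninjured muscle, and activated satellite cells (ASC) came from muscle taken on day 1.5 after injury with cardiotoxin (CTX), which destroys fibres. Every mouse of either group carried the genotype Pax7 CreERT2/+ ;Rosa26 mTmG/+. In this model a drug-inducible Cre is made from 1 allele of Pax7 and switches on a permanent membrane reporter, so that a marked cell stays marked when it no longer makes Pax7. Whether the modified allele still gives Pax7 transcript is not given in the sources used here, and the Pax7 counts of the QSC and ASC libraries come from mice with 1 such allele. There was 1 library per group, made from the pooled cells of several mice. Group and library therefore cannot be told apart, and differences are given without a test.

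Pax7 keeps satellite cells in the stem cell state and is required for their upkeep in adult muscle. Myf5 and Myod1 commit cells to the muscle lineage, Myog (myogenin) starts terminal differentiation, and Myf6 (MRF4) is the member of the family most abundant in mature fibres. The 4 myogenic factors are basic helix-loop-helix proteins that pair with E proteins and bind E boxes, the sequence CANNTG, in the regulatory DNA of muscle genes and of each other.

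The positions are those of the GENCODE M21 annotation of GRCm38. Pax7 lies on chr4:139737062-139833528, Myod1 on chr7:46376474-46379099 and Myog on chr1:134289989-134292548. Myf5 (chr10:107482908-107486134) and Myf6 (chr10:107492853-107494737) are neighbours on the same strand with 6718 bases between them. None of the 5 genes overlaps another annotated gene. The 250 bases before the start of Myog (RefSeq, GRCm38.p6, chr1:134289754-134290003, plus strand) are shown because Myog differed most between the libraries, and those of Myf5 (chr10:107486135-107486384, minus strand) because Myf5 was lower where Myog was higher. Capitals mark matches to CANNTG.
Myog: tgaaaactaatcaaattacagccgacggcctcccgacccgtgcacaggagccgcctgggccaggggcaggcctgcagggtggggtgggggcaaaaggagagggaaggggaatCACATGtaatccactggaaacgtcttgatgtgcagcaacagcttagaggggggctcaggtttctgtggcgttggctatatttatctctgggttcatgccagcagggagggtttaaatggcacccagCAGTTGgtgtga
Myf5: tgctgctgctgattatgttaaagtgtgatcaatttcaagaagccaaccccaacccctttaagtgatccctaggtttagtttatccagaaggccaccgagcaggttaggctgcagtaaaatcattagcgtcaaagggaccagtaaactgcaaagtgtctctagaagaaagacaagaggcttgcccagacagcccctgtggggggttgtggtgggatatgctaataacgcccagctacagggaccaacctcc
Myog held CANNTG at 138 and 12 bases before its RefSeq start. That start lies downstream of the GENCODE start given above, so the nearer match and the end of the window fall inside the GENCODE gene. Myf5 and Pax7 held no CANNTG in their windows, and the RefSeq window of Pax7 lies within its GENCODE gene. Myod1 and Myf6 are only named here. CANNTG reads as CANNTG on the other strand too, so both strands were searched, and it was present in 66.2% of 32851 promoters of the same length, with at least 2 copies in 31.8%.

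Each barcode stands for a droplet, mostly with a single cell. Barcodes below 500 genes, or with over 10% of their unique molecular identifiers (UMIs) from mitochondrial genes, were left out. This left 516 of 766 QSC barcodes (1162091 UMIs, median 2155 per barcode) and 1468 of 1650 ASC barcodes (8895815 UMIs, median 3502). The QSC and ASC libraries shared 2 kept barcodes. Many barcodes were rich in RNA of muscle fibres, so each was placed in a class. Fibre-high barcodes took at least 5% of their UMIs from 10 fibre genes and numbered 104 in QSC and 941 in ASC. Non-muscle barcodes fell in clusters led by markers of immune, fibroblast or endothelial cells and numbered 42 and 115. The remainder, called fibre-low, numbered 370 in QSC (median 2221.5 UMIs) and 412 in ASC (median 8444.5 UMIs). At least 1 UMI of the 5 genes was present in all but 86 of the 370 QSC fibre-low barcodes and all but 42 of the 412 ASC fibre-low barcodes. The fibre-high class of either library held next to no Pax7 or Myf5.

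**Figure D1:**
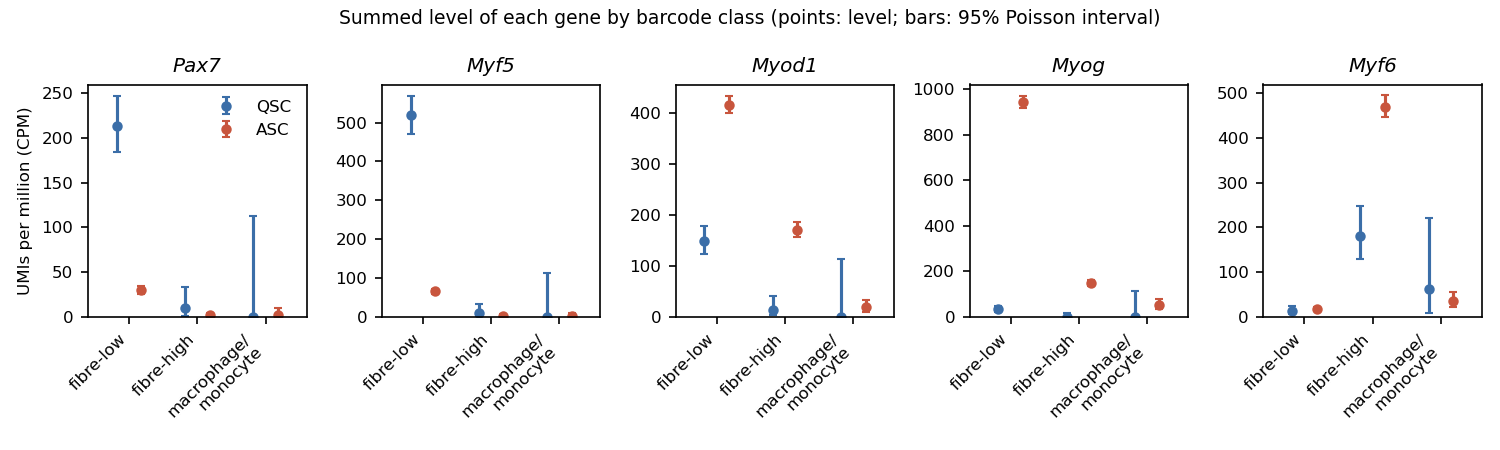
UMIs per 1000000 (CPM) of each gene, summed over the fibre-low, fibre-high and macrophage/monocyte barcodes of the QSC (blue) and ASC (red) libraries, on linear axes that differ between genes. Bars are 95% Poisson intervals. Pax7 and Myf5 are highest in QSC fibre-low barcodes, Myod1 and Myog in ASC fibre-low barcodes and Myf6 in ASC fibre-high barcodes.

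Pax7 and Myf5 were lower, and Myod1, Myog and Myf6 higher, in the ASC library than in the QSC library. Over all kept barcodes the 3 higher members passed a 2-fold difference, as did 17.4% of the 11189 genes with at least 20 UMIs, and the 2 lower members passed it as did 23% of these genes. Among fibre-low barcodes Myod1 and Myog were past 2-fold upwards, as were 19.6% of 9954 genes, and Pax7 and Myf5 downwards, as were 22.5%. Levels were UMIs summed over barcodes and scaled to 1000000 UMIs (CPM), and all intervals, given at 95%, cover counting error only. The median gene with at least 20 UMIs in each library lay at -0.24 on the log2 scale over kept barcodes, -0.26 over fibre-low and -0.17 over fibre-high barcodes, which can be set against the ratios of the same barcodes below.

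Pax7 had 186 UMIs in QSC (160 CPM) and 164 in ASC (18.4 CPM), a log2 ratio of -3.12 (-3.43 to -2.81). Nearly all of it was in fibre-low barcodes, where the level was 214 CPM (184 to 247) in QSC and 29.9 CPM (25.4 to 34.9) in ASC, a log2 ratio of -2.84. The intervals of the 2 libraries were far apart. In macrophage/monocyte barcodes of ASC, which should lack the gene, 1 Pax7 UMI was found in 85 barcodes (1.83 CPM). The 42 non-muscle QSC barcodes held 3 Pax7 UMIs (29.7 CPM, 6.13 to 86.8). With mitochondrial UMIs held to 1%, a limit the study's methods give, only 1 of the 370 QSC fibre-low barcodes remained, and the Pax7 ratio over what was kept became -0.78 with 1 QSC UMI.
Myf5 followed the same pattern at a higher count. It had 445 UMIs in QSC (383 CPM) and 355 in ASC (39.9 CPM), a log2 ratio of -3.26 (-3.47 to -3.06). In fibre-low barcodes it stood at 519 CPM (471 to 569) in QSC and 65.4 CPM (58.7 to 72.7) in ASC.

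Myod1 was higher in ASC, with 130 UMIs in QSC (112 CPM) and 2713 in ASC (305 CPM), a log2 ratio of 1.45 (1.19 to 1.71). The ratio was about as large among fibre-low barcodes (149 and 416 CPM, log2 1.48). It was larger among fibre-high barcodes, where QSC had 3 UMIs (14.0 CPM, 2.88 to 40.9) and ASC had 515 (170 CPM, 156 to 185).

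Myog was the member with the largest difference. It had 29 UMIs in QSC (25.0 CPM) and 5449 in ASC (613 CPM), a log2 ratio of 4.62 (4.09 to 5.20). The QSC level rested on 1 barcode, described below. ASC fibre-low barcodes held 4966 of the UMIs (945 CPM, 919 to 971). Among fibre-high barcodes QSC had no Myog UMI and ASC had 448 (148 CPM), at least 10.6-fold higher when the QSC count is set to 3 UMIs over the class.

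Myf6 stood apart from the other 4 genes because its UMIs were in fibre-high barcodes. These held 75.0% of its 52 UMIs in QSC and 92.5% of its 1539 UMIs in ASC. The log2 ratio over all kept barcodes was 1.95 (1.55 to 2.38), and within fibre-high barcodes it was 1.37 (0.91 to 1.87), with 182 CPM in QSC and 470 CPM in ASC. In fibre-low barcodes Myf6 had 11 UMIs in QSC (12.99 CPM) and 94 in ASC (17.9 CPM), and with a log2 ratio of 0.46 (-0.44 to 1.51) no difference was detectable at this depth. The fibre-low level in ASC was below that of macrophage/monocyte barcodes (34.8 CPM, 21.0 to 54.4) with overlapping intervals (14.5 to 21.9 in fibre-low), so no expression of Myf6 is read from it. Where these fibre-low UMIs came from was not tested.

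Macrophage/monocyte barcodes, a cell type that should lack the 5 genes, served as the background of ASC, and the source of their UMIs was not tested. They held 10 Myod1 UMIs (18.3 CPM), 29 Myog UMIs (53.2 CPM) and 19 Myf6 UMIs (34.8 CPM) in 85 barcodes with a median of 6382 UMIs. Myod1 made up 25.6% of the Myod1 and Myog UMIs there (exact binomial interval 13.04 to 42.1), 30.6% in fibre-low barcodes (29.5 to 31.7) and 53.5% in fibre-high barcodes (50.3 to 56.7). The fibre-high share lay above both of these, as did the fibre-high Myod1 level above that of macrophage/monocyte barcodes.

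**Figure D2:**
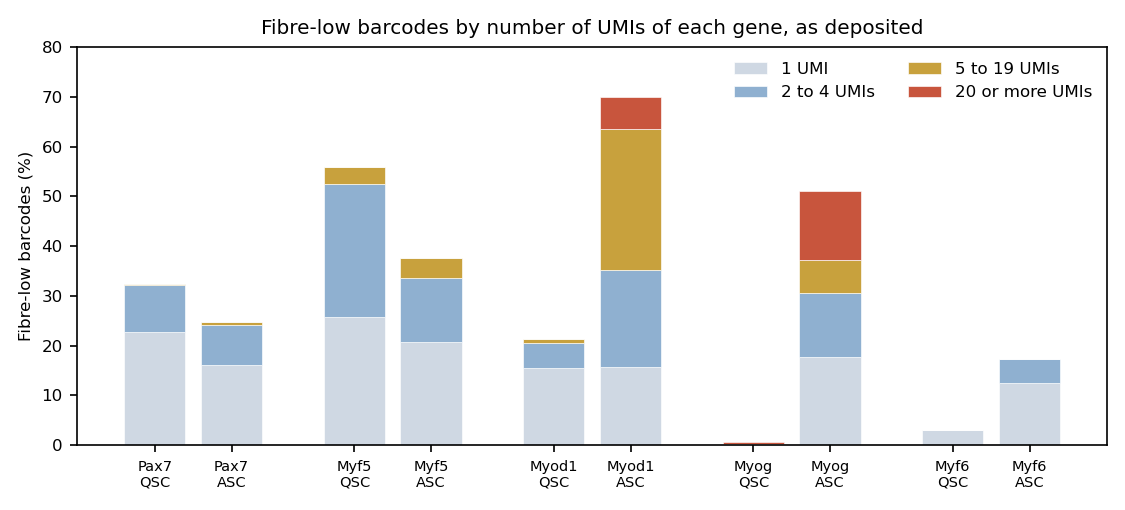
Percent of fibre-low barcodes with 1, 2 to 4, 5 to 19 and 20 or more UMIs of each gene in QSC (370 barcodes) and ASC (412 barcodes), without thinning, so that the deeper ASC barcodes have more chance of a UMI. Only Myod1 and Myog in ASC have a sizeable part at 20 or more UMIs, in 26 and 57 barcodes.

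Cell by cell, Pax7 was sparse in both libraries. Of 370 QSC fibre-low barcodes, 250 had no Pax7 UMI, 84 had 1, 35 had 2 to 4 and 1 had 14. Of 412 ASC fibre-low barcodes, 310 had none, 66 had 1, 33 had 2 to 4 and 3 had 5 UMIs. Thinning each barcode to 1200 UMIs, which left out 4 QSC and 5 ASC barcodes, set both libraries to the same depth. The share of fibre-low barcodes with Pax7 was then 18.03% in QSC (66 of 366, 14.2 to 22.4) and 6.39% in ASC (26 of 407, 4.22 to 9.22), against 32.4% and 24.8% before thinning. None of 83 thinned ASC macrophage/monocyte barcodes had a Pax7 UMI, which allows a share with a UMI of up to 3.61% (3 counts of 83, with an exact upper limit of 4.35%).

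Myf5 was spread over more QSC barcodes than Pax7 was. It was absent from 163 of 370, single in 95, and present at 2 to 4 UMIs in 99 and at 5 to 9 in 13. At 1200 UMIs it was found in 39.3% of QSC (34.3 to 44.6) and 9.58% of ASC fibre-low barcodes (6.90 to 12.9), against 55.9% and 37.6% before thinning. The ASC UMIs were the more uneven, with up to 19 in a barcode and 25.0% of them in the top 10 barcodes, against 15.03% in QSC.

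Myod1 was broad in ASC. It was present in 288 of 412 fibre-low barcodes, 143 of which had at least 5 UMIs, and the top 10 barcodes held 16.3% of its UMIs. In QSC it was present in 79 of 370, 57 of which had 1 UMI. At 1200 UMIs the shares were 13.1% in QSC (9.83 to 17.0) and 31.0% in ASC (26.5 to 35.7), with 3.61% of ASC macrophage/monocyte barcodes (0.752 to 10.2) as background.

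Myog was concentrated rather than broad. In ASC fibre-low barcodes it was absent from 202, single in 73, at 2 to 4 UMIs in 53, and at 5 or more in 84, 57 of which had at least 20 and the highest 190. The top 10 barcodes held 32.2% of its UMIs, against 16.3% for Myod1. Detection at 1200 UMIs was 22.6% (18.6 to 27.0), against 4.82% of macrophage/monocyte barcodes (1.33 to 11.9). Before thinning, 51.0% of ASC fibre-low barcodes and 24.7% of macrophage/monocyte barcodes had a Myog UMI, so a single Myog UMI in a deep ASC barcode cannot be told apart from this background.

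In QSC, Myog was found in 2 of 516 kept barcodes. The barcode with 28 UMIs had 4172 UMIs in all, 3 of Myod1, none of Pax7, Myf5 or Myf6, 13 of the early differentiation list below and none of the cycle list. It clustered with the ASC barcodes that were highest in Myog. The other barcode had 1 Myog, 1 Myod1 and 1 Myf5 UMI. Without the former the QSC level was 1 UMI (0.864 CPM, 0.0219 to 4.81), and the log2 ratio between the libraries became 9.47 (6.99 to 14.77). The count of Myog barcodes in QSC, 2 of 516, is 0.388% (0.0470 to 1.39).

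Myf6 was detected in fibre-high barcodes at 1200 UMIs in 20% of QSC (18 of 90, 12.3 to 29.8) and 38.2% of ASC (326 of 854, 34.9 to 41.5). A QSC fibre-high barcode had at most 3 Myf6 UMIs and an ASC fibre-high barcode at most 21. In fibre-low barcodes the shares were 1.09% and 2.46%, near the 3.61% of ASC macrophage/monocyte barcodes.

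Barcodes that showed more of the 5 genes were mostly deeper. In QSC fibre-low barcodes 86 showed none, 172 showed 1, 89 showed 2 and 23 showed 3, with a median of 1940 UMIs at none and 2739 at 3. In ASC fibre-low barcodes 42 showed none, 85 showed 1, 148 showed 2, 107 showed 3, 26 showed 4 and 4 showed all 5, and the median depth went from 4087.5 UMIs at none to 28930 at 4 and was 22189.5 at all 5. The most frequent QSC combination was Myf5 alone (112 barcodes), followed by Pax7 with Myf5 (47) and Pax7 alone (38). In ASC it was Myod1 with Myog (65), followed by Myod1 alone (46) and Myf5, Myod1 and Myog together (37). Pax7 alone was found in 5 ASC barcodes. Co-detection was therefore compared at 1200 UMIs, with 1 random thinning for the counts and intervals and with the mean over all possible thinnings beside it.

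In QSC fibre-low barcodes, Myf5 was detected about as often in barcodes with Pax7 as in those without. Of the 66 fibre-low barcodes with Pax7, 36.4% had Myf5 (24 barcodes, 24.9 to 49.1), and of those without Pax7, 40.0% had it (34.4 to 45.8). The means over all thinnings were 38.7% and 41.1%. Over all 488 thinned QSC barcodes, fibre-high ones included, the means were 37.6% and 29.9%. Myod1 was found in 16.7% of QSC barcodes with Pax7 (8.62 to 27.9) and 12.3% of those without (8.83 to 16.6), and in 9.72% of those with Myf5 and 15.3% of those without. None of these pairs of intervals was apart. Pax7 and Myog shared no QSC barcode, but only 2 barcodes had Myog (exact interval 0 to 84.2% for Pax7 among them). No exclusion is read from this.

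In ASC fibre-low barcodes the shares with Myog were highest beside Myod1 and lowest beside Pax7 or Myf5, but no pair of intervals was apart. Of 126 fibre-low barcodes with Myod1, 29.4% had Myog (21.6 to 38.1), and of those without, 19.6% (15.1 to 24.7), with means over all thinnings of 27.4% and 21.1%. Over all 1371 thinned ASC barcodes, fibre-high and non-muscle ones included, Myog was in 21.5% of those with Myod1 (16.8 to 26.9) and 12.1% of those without (10.3 to 14.2), and these intervals were apart. Myog was found in 7.69% of barcodes with Pax7 (2 of 26, 0.946 to 25.1) and in 23.6% of those without (19.4 to 28.2), with means of 10.9% and 23.8%. For Myf5 in place of Pax7 the shares were 12.8% (4.30 to 27.4) and 23.6%, with means of 10.5% and 24.3%, and over all thinned ASC barcodes 14.6% and 14.0%, with means of 10.4% and 14.9%. Only 26 ASC barcodes kept a Pax7 UMI at this depth and 39 a Myf5 UMI.
For Pax7 and Myf5 in ASC no order is read. Myf5 was in 7.69% of Pax7 barcodes and 9.71% of the others in 1 thinning, and the means over all thinnings were 17.9% and 9.28%. Myod1 was found in 23.1% of ASC barcodes with Pax7 (8.97 to 43.6) and 31.5% of those without (26.9 to 36.4), with means of 27.0% and 30.7%. In fibre-high ASC barcodes Myod1 was found in 21.8% of barcodes with Myf6 (17.4 to 26.7) and 14.0% of those without (11.2 to 17.3), with means of 22.0% and 14.9%. Over all kept ASC barcodes, 341 had Myf6 after thinning and none of these had Pax7 or Myf5 (exact interval 0 to 1.08% for each), against 2.62% and 3.98% of barcodes without Myf6. This contrast pools the classes. Of the 341, 326 were fibre-high and 10 fibre-low, while 26 of 27 Pax7 and 39 of 41 Myf5 barcodes were fibre-low. Before thinning, 18 of 666 Myf6 barcodes had Pax7 and 35 had Myf5.

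**Figure D3:**
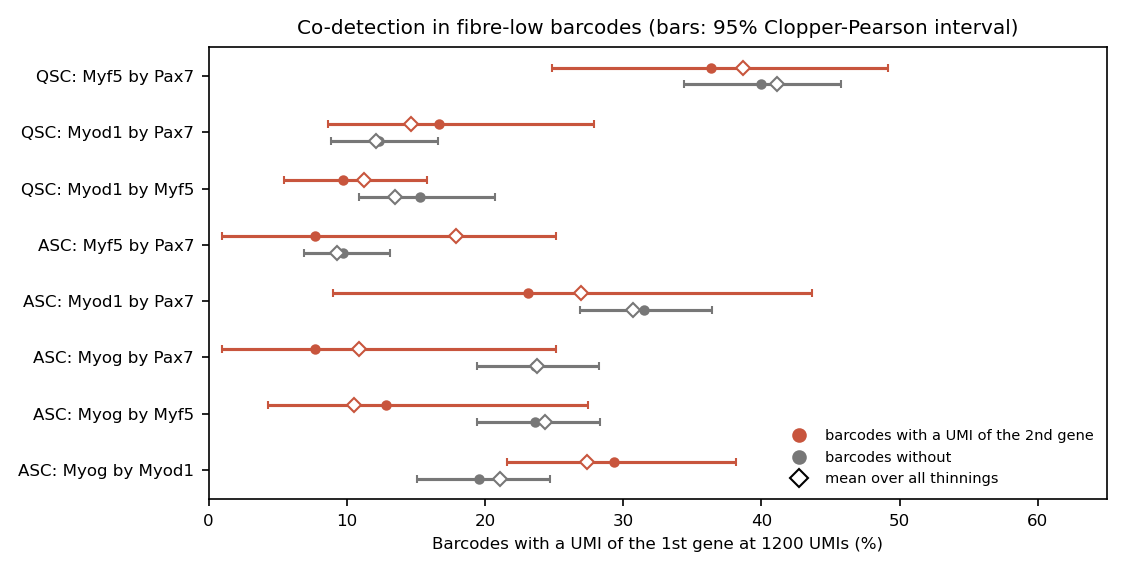
Percent of fibre-low barcodes, thinned to 1200 UMIs, with a UMI of the gene named first, among barcodes with (red) and without (grey) a UMI of the gene named second. Filled points are 1 thinning with 95% Clopper-Pearson intervals and open diamonds are means over all thinnings. The intervals of every pair drawn overlap, and the diamonds are farthest apart for Myog by Pax7 and Myog by Myf5 in ASC.

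Ordering ASC fibre-low barcodes by their Myog UMIs set Pax7 and Myf5 against Myog, with Myod1 present throughout. Pax7 was at 52.5 CPM (42.3 to 64.5) in the 202 barcodes without Myog, 31.3 CPM in the 73 with 1 UMI, 15.8 CPM in the 53 with 2 to 4 and 10.8 CPM (5.75 to 18.5) in the 84 with 5 or more. Myf5 was at 98.7, 72.0, 44.3 and 34.0 CPM in the same order. Myod1 was at 409, 335, 417 and 497 CPM, so it varied far less than Pax7 and Myf5 did, and Myf6 stayed between 16.6 and 20.8 CPM. The median depth of the bins was 5416, 10244, 27551 and 12003.5 UMIs, so the bin with 2 to 4 UMIs held the deepest barcodes. The part of depth in this order was not tested.
Barcodes with Myog were also put in 3 bins of equal size by Myog per 10000 UMIs. Pax7 was then at 10.0 CPM in the lowest bin (median 28774 UMIs), 56.2 CPM in the middle bin (median 7055.5) and 3.53 CPM in the highest bin (median 11449). The decline of Pax7 over the Myog bins did not hold step by step in this order. The middle bin was no lower in Pax7 than the barcodes without Myog, while the highest Myog bin was still the lowest. Myod1 in the highest bin was at 520 CPM (472 to 570).

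Gene lists without the 5 members gave an order that does not use them. The quiescence list holds 12 genes such as Calcr, Spry1, Hey1 and Notch3, the cycle list 19 genes of DNA replication and mitosis such as Mki67 and Top2a, and the early differentiation list 15 genes such as Mymk, Mymx, Actc1 and Chrna1. UMIs were summed over each list, so genes with many UMIs weigh most. In ASC fibre-low barcodes the quiescence list was mostly Fos (4753 UMIs) and Sdc4 (2749). Calcr, Spry1, Hey1 and Notch3 had 16, 228, 74 and 93. By the share of UMIs from the quiescence list, ASC fibre-low barcodes went from 10.4 CPM of Pax7 in the lowest bin to 28.6 and 94.8 CPM, and from 27.5 CPM of Myf5 to 79.4 and 151 CPM. Myod1 was flat across the same bins, at 413, 414 and 446 CPM. Pax7 and Myf5 were thus highest where the summed quiescence list, mostly Fos and Sdc4, was highest. The median depth went the other way, from 16288 to 4966 UMIs.
By the cycle list, Pax7 was at 101 CPM in the 63 barcodes without a cycle UMI and 17.5 CPM in the highest bin, and Myf5 at 184 and 42.7 CPM. Myod1 was at 268 CPM without cycle UMIs and 420 to 428 CPM in the 3 bins above. Myog was at 1311 CPM without cycle UMIs, 2639 CPM in the lowest bin and 132 CPM in the highest. The bin highest in the cycle list was thus the lowest in Pax7 and Myog, and it was also the deepest, at a median of 23955.5 UMIs against 4179 in barcodes without a cycle UMI.
By the early differentiation list, Myog was at 97.4, 223 and 3341 CPM in the lowest, middle and highest bin, Myod1 at 369, 441 and 468 CPM, and Pax7 at 29.1, 36.0 and 23.7 CPM. Myog was the member that moved with this list. In QSC the same ordering gave 120 CPM of Myod1 in the 66 barcodes without a UMI of the list and 98.9, 124 and 245 CPM (185 to 318) in the bins above, while Pax7 stayed between 172 and 244 CPM. In QSC fibre-low barcodes, however, this list was mostly Cdkn1a (522 UMIs) and Cdh15 (214). Mymk, Mymx, Actc1 and Chrna1 had 4, 0, 4 and 73 UMIs there.

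**Figure D4:**
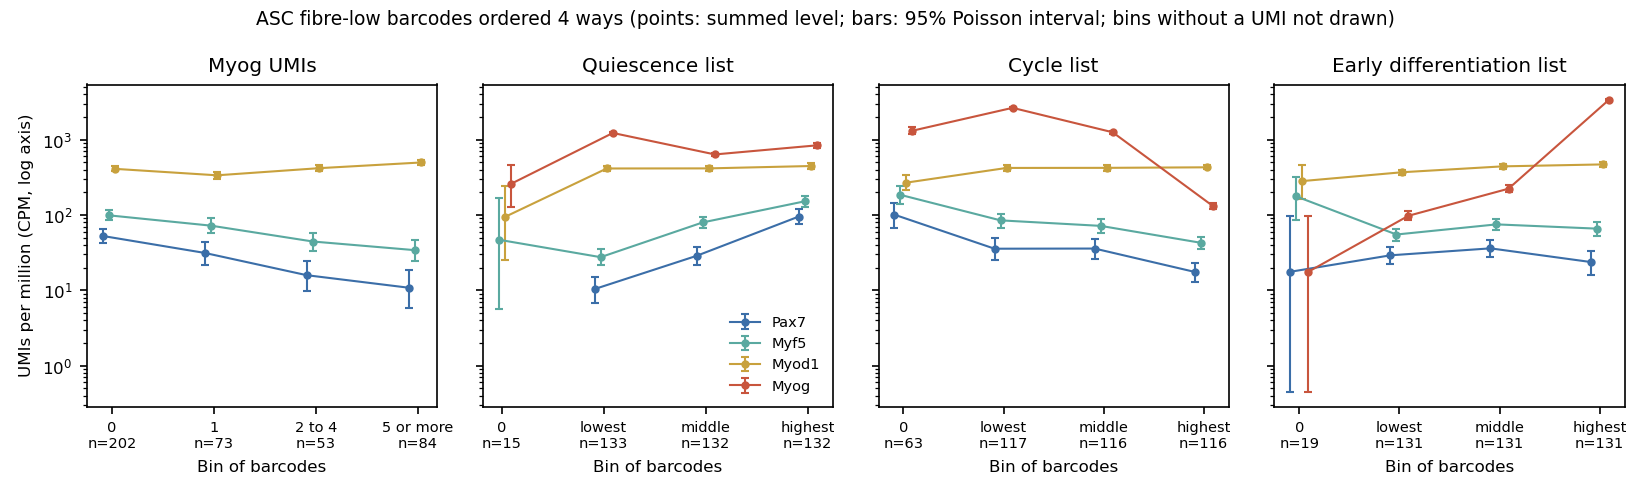
CPM on a log axis of Pax7, Myf5, Myod1 and Myog in ASC fibre-low barcodes binned by Myog UMIs and by the share of UMIs from the quiescence, cycle and early differentiation lists. Bars are 95% Poisson intervals, and bins where a gene has no UMI are not drawn. From the lowest to the highest bin Myod1 goes from 413 to 446 CPM along the quiescence list, Pax7 from 10.4 to 94.8 CPM along the same list and Myog from 97.4 to 3341 CPM along the early differentiation list.

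Barcodes sorted by the members they showed, at 1 or more UMIs without thinning, differed in the lists as well. In ASC fibre-low, the 17 barcodes with Pax7 but neither Myod1 nor Myog had 5031 CPM of the quiescence list and 264 CPM of the cycle list (171 to 390), while QSC barcodes had 223 CPM with Pax7 but neither Myod1 nor Myog, 237 CPM with Myf5 alone and 242 CPM with none of Pax7, Myf5, Myod1 and Myog. The 41 with Pax7 and Myod1 but no Myog had 2808 CPM of the quiescence list and 3312 CPM of the cycle list. The 80 with Myod1 but neither Pax7 nor Myog had 2400 and 2082 CPM. The 16 ASC barcodes with Myf5 but none of Pax7, Myod1 and Myog had 7439 CPM of the quiescence list and 358 CPM of the cycle list (238 to 518). The 48 with none of the 4 genes had 2738 and 1026 CPM. Cycle RNA was thus low in ASC barcodes that showed Pax7 or Myf5 but neither Myod1 nor Myog, at median depths of 4230 and 4124 UMIs. It was high in those that showed Pax7 with Myod1 but no Myog, at a median depth of 6907 UMIs.
The 133 barcodes with Myod1 and Myog but no Pax7 had 1725 CPM of Myog, 2749 CPM of the cycle list and 1647 CPM of the early differentiation list. The 33 with Myog but neither Myod1 nor Pax7 had 1788 CPM of Myog, 1005 CPM of the cycle list and 3572 CPM of the early differentiation list.
Pax7 and Myog were found together in 44 ASC barcodes, but mostly at a low Myog count. Of these, 21 had 1 Myog UMI, 14 had 2 to 4 and 9 had 5 or more, up to 23. A single Myog UMI in a deep ASC barcode cannot be told apart from the macrophage/monocyte background given above. Whether those 21 barcodes made both genes is therefore not read. The 44 barcodes had a Myog level of 206 CPM (175 to 241), an early differentiation list at 773 CPM and a median depth of 12691 UMIs.
In QSC the 45 barcodes with Myod1 but neither Pax7 nor Myog had 491 CPM of the cycle list (371 to 638), against 223 CPM (164 to 296) in the 88 with Pax7 but neither of the others and 249 CPM (156 to 377) in the 32 with Pax7 and Myod1.

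Clustering without the 5 genes among the variable genes placed the ASC fibre-low barcodes mainly in 3 clusters. Cluster 9 (44 ASC barcodes), led by Cdkn1c, a cell cycle inhibitor, Mymk, the membrane activator of myoblast fusion, and Actc1, the actin of embryonic muscle, had 6664 CPM of Myog (6454 to 6878). Myog ranks among its leading genes too, although the cluster was made without it. Myog was in 43 of its 44 barcodes, with a median of 82 UMIs, and these barcodes held 70.2% of the Myog UMIs of the library. Pax7 had no UMI there, and Myf5 8 UMIs (13.9 CPM), while Myod1 was at 395 CPM.
Cluster 4 (146 ASC and 72 QSC barcodes) was led, over both libraries together, by replication genes such as Rrm2 and Pclaf. Its ASC barcodes (median 17949.5 UMIs) had 368 CPM of Myod1, 84.2 CPM of Myog (73.6 to 95.8) and 11.03 CPM of Pax7. Its QSC barcodes (median 1755 UMIs) had 93.2, 0 and 202 CPM. All kept QSC barcodes together held 0 Pclaf and 26 Rrm2 UMIs, so these leading genes do not describe the QSC part. Cluster 1 (248 ASC barcodes), led by Bgn and C1qtnf3 with Acta2 and Tagln, markers of smooth muscle, after them, had 453 CPM of Myod1, 481 CPM of Myog, 120 CPM of Myf5 and 61.7 CPM of Pax7 (51.0 to 73.9). It held 117 of the 164 Pax7 UMIs of the library, and the part of its smooth muscle genes in these values was not tested. Only 2 smooth muscle markers were detected and higher in it, so the naming rule left it unnamed. Tagln was in 20.6% of its barcodes over both libraries, and Acta2 is also among the leading genes of cluster 9. Myod1 thus lay between 368 and 453 CPM in the ASC barcodes of these clusters, while Pax7 and Myog differed widely.
The QSC fibre-low barcodes fell mainly in cluster 2 (236 QSC barcodes), led by immediate early genes such as Fosb and Maff, with 213 CPM of Pax7, 526 CPM of Myf5, 152 CPM of Myod1 and 1 Myog UMI. Another 37 QSC barcodes fell in cluster 0, with 233 CPM of Pax7 and 588 CPM of Myf5. Their median share of fibre UMIs was 1.75%, against 16.5% in the ASC barcodes of cluster 0.
Clusters 0, 3, 5 and 6 of ASC took a median of 11.1% to 16.5% of UMIs per barcode from the fibre genes. Cluster 3 was nonetheless led by Hbb-bs, a haemoglobin of red blood cells found in 10.3% of its barcodes over both libraries. It had no fibre marker among its 10 leading genes. The ASC barcodes of clusters 0, 3, 5 and 6 had 474, 356, 606 and 287 CPM of Myf6 and 180, 206, 211 and 63.5 CPM of Myod1. Cluster 6 had the lowest Myf6 and Myod1 levels of these clusters. It was led by genes of slow fibres such as Tnnc1 and Tnni1, but these were in only 24.1% and 18.1% of its barcodes over both libraries. In cluster 8 of QSC, with a median of 18.5% fibre UMIs, Myf6 was at 169 CPM (116 to 237) and Myod1 at 15.3 CPM (3.16 to 44.8).

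**Figure D5:**
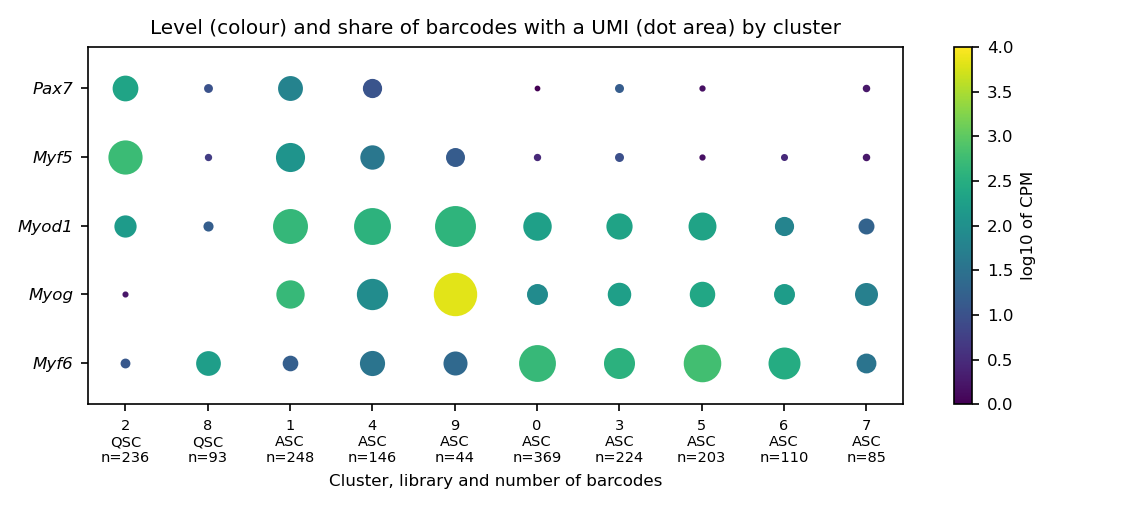
Level (colour, log10 of CPM) and share of barcodes with a UMI (dot area) of each gene in the clusters with at least 85 barcodes of a library and in cluster 9, with the number of barcodes under each column. The QSC barcodes of clusters 0 and 4 are not drawn. Myog peaks in cluster 9, where Pax7 has no dot, and Myf6 is highest in clusters 0, 3, 5 and 6.

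The genes whose UMIs per 10000, on the log scale, correlated best with each member over the 412 ASC fibre-low barcodes are given as a description, since all barcodes share a library and differ in depth. For Myog these were Mymk (r = 0.79), Cdkn1c (0.78), Dbn1 (0.75), Spg21 (0.72) and Fndc5 (0.66). For Myf6, found in 71 of these barcodes, they were Myl3 (0.51), Tnni1, Tnnc1, Myl6b and Myl4 (0.42), which encode contractile proteins. For Pax7 they were Sbno2 (0.43), Gpx3, Nfkbiz, Apoe and Bgn (0.38), and for Myf5 they were Apoe (0.36), Igfbp7, Gpx3, Lpar1 and Rarres2 (0.32). Apoe and Gpx3 were on the list of both Pax7 and Myf5. For Myod1, which also followed depth (r = 0.28 with the log of UMIs), they were Cd82 (0.37), Rrs1, Ddx39b, Ccar1 and Nifk (0.29). In the 370 QSC fibre-low barcodes the highest r was 0.24 for Pax7, 0.22 for Myod1 and 0.25 for Myf6, and for Myf5 the highest was Actb (0.34), followed by Pam, Sdc4, Notch2 and Kdm6b. For the others in QSC the 5 highest were Uba2, Smad5, Slc39a13, Smu1 and Ehd2 for Pax7, Tbl1x, Lix1, Denr, Paics and Ankrd1 for Myod1, and Idh1, Odr4, Rp2, Larp4b and Ssrp1 for Myf6, too weak to be read.

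Other genes of the pathway were counted by the same 2-fold rule over kept barcodes, where 17.4% of all genes with at least 20 UMIs were higher and 23% lower. Of 21 partners and regulators of the myogenic factors with at least 20 UMIs, none was higher in ASC and 8 were lower, with a median log2 ratio of -0.44 against -0.10 over the 11189 genes with at least 20 UMIs in the 2 libraries together. The lowest were Pax3, the relative of Pax7 (32 and 24 UMIs in QSC and ASC, log2 -3.35), and Hes1, a target of Notch (480 and 509 UMIs, -2.85). The highest were Mdfi, an inhibitor of myogenic factors (6 and 74 UMIs, 0.69 with an interval of -0.50 to 2.18), and Snai1, a repressor that binds E boxes (5 and 55 UMIs, 0.52). Over fibre-low barcodes Snai1 passed 2-fold on only 2 QSC UMIs (51 in ASC, log2 interval 0.11 to 5.12), and 8 partners were again lower. Of all genes there, 19.6% were higher and 22.5% lower.
The quiescence list had 11 of 12 genes lower and none higher (median -2.54), with Calcr (-3.49), Fos (-3.32), Gas1 (-3.23) and Notch3 (-3.14) lowest. Hes1, Hey1 and Heyl are in this list and among the partners, and Mef2c is among the partners and in the early differentiation list. The early differentiation list had 11 of 14 genes higher and 1 lower (median 3.36). With the 3 genes that had no QSC UMI set to 3 UMIs, 10 were higher and the median was 1.91. Of those with a QSC count the highest were Tnnt2 (1 and 456 UMIs, 5.90 with an interval of 3.41 to 11.20), Actc1 (8 and 1485 UMIs, 4.60) and Mybph (4 and 688 UMIs, 4.49). Only 59 of the ASC Mybph UMIs were in fibre-low barcodes, where its log2 ratio was 2.25 on 2 QSC UMIs (0.33 to 5.33). The gene that was lower was Cdkn1a, the inhibitor of cyclin-dependent kinases p21 (-1.002). The cycle list had 18 of 19 genes higher (median 3.99, or 3.76 with its 3 genes without a QSC UMI at that bound), and the 10 fibre genes had 4 higher and 1 lower (median 0.22).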

How the data were processed

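UMI counts per gene and barcode were used as deposited. According to the file headers and the submitters' processing notes, the authors aligned and counted the 3' reads with Cell Ranger (6.0.2 in the headers, 7.1.0 in the notes) against mm10. The annotation and the strand setting are not given in the sources used here. The members and gene lists were chosen with earlier results of these data known. Named genes were the 5 members, up to 4 genes per list with the highest and lowest ratios, and the 5 genes best correlated with each member.

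Barcodes were filtered as given above, and libraries were scaled by total UMIs. Intervals were exact (Poisson, Clopper-Pearson and conditional binomial, at 95%) and cover counting error only, since cells are not replicates. Thinning drew 1200 UMIs per barcode without replacement, and the counting scripts were tested on simulated data. Libraries were merged and clustered in Seurat 5.3.0 with the settings of the study's methods, after 4 of the members had been taken out of the variable genes, giving 13 clusters. Clusters were named from marker lists by a rule written after the data were seen, which needed at least 2 markers among the 10 leading genes. It also needed at least 3 markers found in at least 10% of the cluster's barcodes at a mean above that of the rest. Scrublet (scanpy 1.11.5) marked 8 QSC and 2 ASC barcodes as doublets, 0.136% of ASC barcodes, and none was removed. Python 3.11.15 and R 4.3.3 were used. Alternatives were other barcode limits, thinning depths, scalings (TMM of edgeR) and classes.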

Additional observations from a re-analysis of the deposited data

Results flagged for a closer look

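Barcodes left out by the filter still held UMIs of the 5 genes. The 250 QSC barcodes left out (median 655.5 UMIs) held 4 Pax7, 13 Myf5, 5 Myod1 and 33 Myf6 UMIs. The 182 ASC barcodes left out (median 717.5 UMIs) held 4 Myf5, 31 Myod1, 37 Myog and 52 Myf6 UMIs. Each of these counts is above 3, and they were flagged because no comparison above uses these barcodes. Myf6 was the most frequent of the 5 in either set, and fibre genes made up 16.1% of the UMIs of the QSC set and 8.18% of those of the ASC set, against 4.71% and 6.37% in kept barcodes.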

How the results depend on the processing

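Under the alternatives run, no level or share between the libraries turned sign, but some of their intervals held both signs and could not show a direction. Myf6 across the Myog bins did turn sign, as did 19 of 76 co-detection differences between barcodes with and without the other gene. No paired analysis was possible because each group has 1 library, and no replicate could be left out. Of 50 alternative levels (log2 of ASC over QSC), 32 stayed within the counting interval. With at most 1% mitochondrial UMIs the ratios were -0.78 for Pax7 (-3.56 to 4.65), -0.99 for Myf5 (-3.04 to 2.16), 2.68 for Myod1 and 1.12 for Myf6. With at most 5% the ratio was -2.99 for Myf5. Without fibre-high barcodes Myf5 was at -2.99 and Myf6 at 0.53 (-0.30 to 1.48), and without non-muscle barcodes as well at -2.99 and 0.46 (-0.44 to 1.51). TMM scaling gave -2.95 for Myf5 and 1.76 for Myod1, and scaling to the median gene -3.02 for Myf5. The mean over barcodes of UMIs per 10000 gave -3.64 for Myf5, 1.19 for Myod1 and 2.78 for Myf6. With at least 1000 genes per barcode Myod1 was at 0.95 and Myog at 3.83. Without the QSC barcode with 28 Myog UMIs, an alternative chosen after seeing the data, Myog was at 9.47. Of 49 shares of barcodes (log2 of ASC over QSC; Pax7 -2.82, Myf5 -3.33, Myod1 0.91, Myf6 2.46), 35 stayed. Without fibre-high barcodes they were -1.74 for Pax7, -2.28 for Myf5 and 1.53 for Myf6, and without non-muscle barcodes as well -1.50, -2.04 and 1.17. At 2 or more UMIs without thinning they were -1.51, -2.21 and 4.15, with 2.42 for Myod1. At most 1% mitochondrial UMIs gave -2.49 for Myf5, 2.09 for Myod1 and 0.92 for Myf6, and at least 1000 genes 3.71 for Myf6. Of 76 co-detection shares, over all kept barcodes unless named, 67 stayed. The 19 that turned were 7 of 10 for Myf5 by Myog, 4 of 10 for Myod1 by Myf6, 1 of 10 for Pax7 by Myog, 4 of 9 for Myod1 by Pax7 and 1 of 9 for Myf5 by Pax7 in ASC, and 2 of 9 for Myf5 by Pax7 in QSC. In the 18 with an interval it held the share without the other gene. Myf5 among QSC Pax7 barcodes (35.3%) was at 48.8% at 2000 UMIs. Myog among ASC Myod1 barcodes (21.5%) was at 14.7% with at most 1% mitochondrial UMIs, 28.7% without fibre-high barcodes and 29.4% without non-muscle barcodes as well. At most 1% mitochondrial UMIs left Pax7 and Myf5 at 0% of ASC Myog barcodes, and 4 pairs with Pax7 could not be given. Myod1 among ASC Myf6 barcodes (21.7%) was at 30% in fibre-low barcodes, 17.3% at 800 UMIs and 26.9% at 2000 UMIs. The difference between the highest Myog bin and barcodes without Myog (log2; Pax7 -2.28, Myf5 -1.54, Myod1 0.28, Myf6 0.31) was -3.89 for Pax7 by Myog per 10000 UMIs, and over all kept barcodes -1.16 for Pax7, -0.40 for Myf5, 0.98 for Myod1 and -2.53 for Myf6. In fibre-low barcodes 1 fibre gene was higher and 2 lower, and 1 partner was higher. A fibre limit of 2% left 263 ASC fibre-low barcodes in place of 412. The causes were not tested.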
